A study of Mus musculus with 6 samples.

Results

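The genes described here are 36 genes of the cell cycle and of DNA replication, followed in heart ventricles of adult mice that lost the transcription factor Tead1 in cardiomyocytes. They are a list of known genes, picked by function and not by a rule on their measured values, though with earlier results of these data known. They were sorted by the phase in which they act: 6 genes of G1, 4 of the passage from G1 to S, 10 of S phase and 16 of G2 and mitosis, called mitotic here. A probe was taken as a member's probe where its RefSeq accession belongs to that gene, which gave 47 probes among the 55681 probes of the array, and at least 1 probe for each of the 36 members among 20145 genes with a named probe. The scanner software flags a probe as well above background or not, and a probe entered the comparison where all 3 control arrays or all 3 icKO arrays carried that flag. Of the members, 28 were measured by this rule and 8 were not: Ccne2, Top2a, Ccnb1, Cdk1, Bub1, Bub1b, Aurkb and Cenpf. Since a gene can pass the rule through 1 group alone, counts over the 28 are counts over measured genes and not over all members.

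RNA came from whole ventricles of male mice of strain background C57bl/6j, 11 to 12 weeks old. The 3 mice called icKO carried floxed Tead1 alleles together with Myh6-CreER, a Cre recombinase switched on by tamoxifen and made in cardiomyocytes by the Myh6 promoter. The 3 control mice carried floxed Tead1, and mice of both groups were given tamoxifen. No Cre is named in the labels of the control mice, so the presence of Cre and the loss of Tead1 cannot be told apart. The ventricle also holds fibroblasts, endothelial cells and macrophages, where this Cre is not made. Each RNA was labelled with Cy3 and hybridised to a one-colour Agilent array, and the labels call the samples biological replicates.

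A dividing cell grows in G1, copies its DNA in S phase and separates its chromosomes in mitosis. D-type cyclins with Cdk4, and later cyclin E with Cdk2, phosphorylate the retinoblastoma protein and so release E2F factors, which switch on genes of DNA replication, while the genes of G2 and mitosis are switched on later through promoters bound by the MuvB complex with B-Myb or FoxM1. Adult cardiomyocytes seldom divide, whereas other cells of the heart can, and Tead1 is a DNA-binding partner of YAP and TAZ, coactivators known for driving proliferation.

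On every array, 47.7% to 50.9% of probes were well above background and 0 spots were saturated. The number of arrays, 3 a group, limits the precision of every value. Signals are given as log2 of the processed signal minus the log2 of that array's 75th percentile, so that 0 is the signal of the 75th percentile probe and a difference of 1 is a doubling. That percentile was 189.1, 232.5 and 215 on control arrays and 311.9, 347.5 and 291.8 on icKO arrays, so it was higher on every icKO array. A fall is therefore a fall relative to that percentile, and the unscaled signal, as for Ccnd3, need not be lower in icKO. The brightest Tead1 probe stood at 4.01, 3.79 and 3.96 on control arrays and at 3.66, 3.44 and 3.46 on icKO arrays, a difference of -0.40 ± 0.11 (SE, n = 3 and 3; adjusted p = 0.0300), with 0.04 under scaling to spike-in probes. Leaving out control replicate 1 (-0.35) or 3 (-0.38), or icKO replicate 2 (-0.36) or 3 (-0.37), ended that call. The other Tead1 probes gave -0.43 and -0.19, and for the latter the groups overlapped. Whether the probes lie in the stretch that Cre removes is not known, so they are no check of the labels.

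Cell type markers moved between the same arrays. Of 10 cardiomyocyte markers, 9 fell, and their summed level, in multiples of each array's 75th percentile signal, was 9589 to 11530 on control arrays and 6029 to 6715 on icKO arrays. Of 10 fibroblast markers, 7 rose, and their sum came to 431.4 to 630.4 for controls and 876.9 to 1011 for icKO mice. Of 10 macrophage markers, 9 were measured and 7 rose, with sums of 70.1 to 87.4 in controls and 118.6 to 138.6 in icKO. Of 6 erythroid markers, 4 were measured and 3 rose, with sums of 364.8 to 657.7 in controls and 661.3 to 1446 in icKO. These sums were mostly Hba-a1, by far the brightest of the 4, with log2 means of 8.88 in controls and 9.72 in icKO. Hba-a1 was the measured erythroid marker that was not called (0.84, adjusted p = 0.0707). Of the 9 T and B lymphocyte markers, Cd3d, Cd3g, Cd8a, Cd79a and Ms4a1 were not measured, and of the 4 others 2 fell, with sums of 3.61 to 4.24 in controls and 2.86 to 3.27 in icKO. The endothelial markers gave 1 higher and 3 lower of 8, with sums of 176.1 to 193.9 in controls and 198.6 to 266.1 in icKO. A sum weighs bright genes most, and Vwf was the only endothelial marker called higher (2.14). The median difference of the endothelial markers was -0.26, with 6 of 8 below 0. Markers of smooth muscle and pericytes gave 2 higher and 2 lower of 7, with sums of 48.9 to 76.6 and 60.2 to 68.7. In such bulk RNA, fewer cells of a type and less RNA per cell cannot be told apart, and the part of this shift in the values of the cell cycle genes was not tested.

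Of the 28 measured members, 8 passed the threshold (limma with Benjamini-Hochberg adjustment over all 22278 features, adjusted p under 0.05), or 28.6%, where 44.8% of all features did. Cenpa rose, as did 16% of all features, and 7 members fell: Ccnd2, Ccnd3, Cdk4, Ccne1, Cdk2, Mcm2 and Mcm5, where 28.7% of all features fell. The share of members called was thus below that of all features. The values of the 2 groups did not overlap for 13 members, 3 of them higher in icKO (Mcm3, Mcm6 and Cenpa) and 10 lower, compared with 59.3% of all features (21.6% higher and 37.7% lower). The calls lay in different phases of the cycle, but the phases also differed in precision. The SE of the difference ran from 0.10 to 0.25 for G1 genes and from 0.18 to 0.36 for mitotic genes. Cdk4 at -0.35 (SE 0.11) was called and Cdc20 at -0.32 (SE 0.28) was not. Counts of calls by phase therefore do not compare the sizes of the differences. In G1, 3 of 6 measured genes fell and 0 rose; at the passage to S, 2 of 3 fell and 0 rose; in S phase, 2 of 10 fell and 0 rose; among mitotic genes, 0 of 9 fell and 1 rose.

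**Figure D1:**
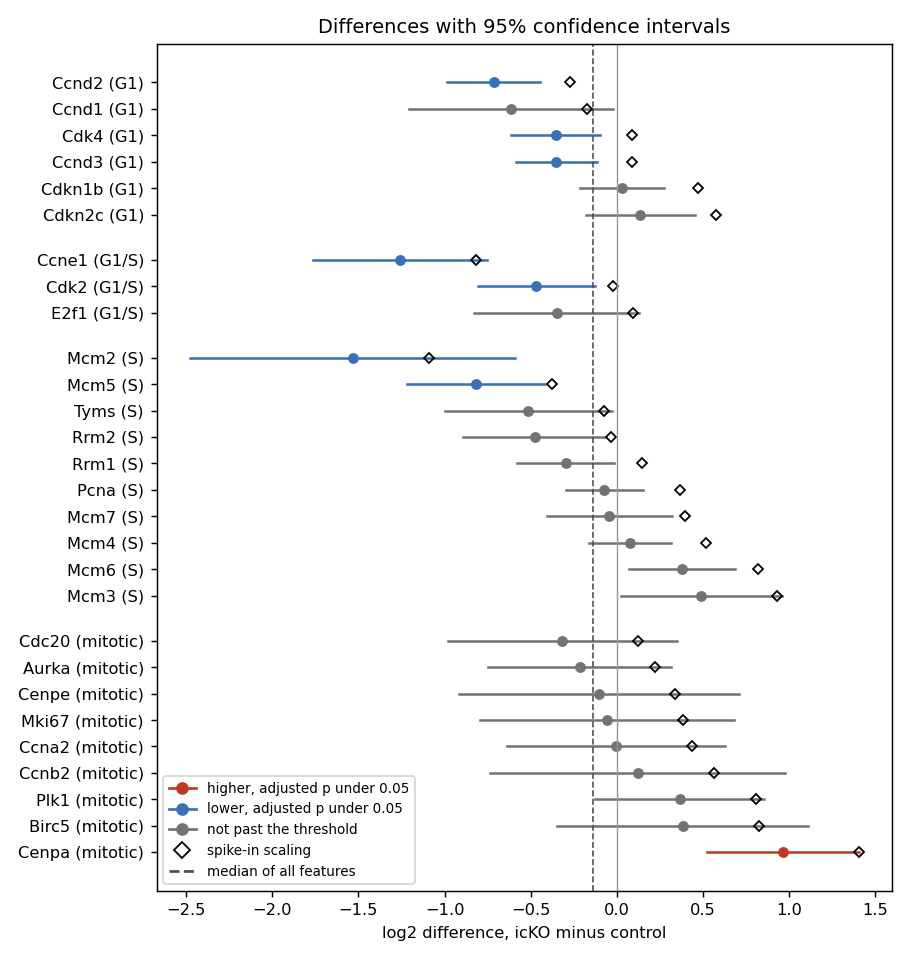
Difference between icKO and control (log2, x axis) for the 28 measured members, grouped by phase, with 95% confidence intervals (bars, 3 arrays a group) and colours for the call; open diamonds give the difference with spike-in scaling and the dashed line the median of all features, -0.14. Ccne1 and Mcm2 lie farthest to the left and Cenpa farthest to the right, and with spike-in scaling every diamond lies to the right of its point, and crosses 0 for Ccnd3, Cdk4, E2f1, Rrm1, Pcna, Mcm7, Cdc20, Aurka, Cenpe, Mki67 and Ccna2.

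The medians of the fitted differences, for which no test was run, also differed between the phases. The median was -0.35 for G1 genes, -0.47 for the 3 genes of the passage to S, -0.19 for S phase genes and -0.00 for mitotic genes, where the median of all features was -0.14. Relative to all features, the 4 medians were therefore -0.21, -0.33, -0.05 and 0.14. How the arrays are scaled sets the zero of all these differences: the median of all features was 0.02 with each array's median subtracted, -0.07 with quantile scaling and 0.30 with scaling to spike-in probes, and the share of higher genes among the calls was 35.8% in the main comparison, 54.6%, 43.6% and 81.0% with those scalings. Of all features, 36.2%, 42.1% and 39.7% were called with median, quantile and spike-in scaling. Under scaling to the median or to spike-in probes, which move every feature of an array by the same amount, the values relative to all features stay the same by construction. They moved when an icKO array was left out: the mitotic value was -0.11 without icKO replicate 2 and 0.45 without icKO replicate 3, while the G1 value was -0.23 in both cases. Without icKO replicate 2 the mitotic value lay below the S phase value of -0.07. With no filter on dim probes the mitotic value was 0.06. Members called lower numbered 4 of 28 with median scaling (16.4% of all features), 5 with quantile scaling (23.8%) and 2 with spike-in scaling (7.54%). Those called higher numbered 2 (19.7%), 2 (18.3%) and 8 (32.2%). The 8 with spike-in scaling were Cdkn1b, Cdkn2c, Mcm3, Mcm4, Mcm6, Plk1, Birc5 and Cenpa.

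Leaving out 1 array moved these counts. Calls over all features also became fewer, from 3573 higher and 6401 lower of 22278 in the main comparison. Without control replicate 1, 3 members rose (Cenpa, Mcm3 and Mcm6) and 4 fell, where 2983 of 22650 features rose and 5013 fell. Without control replicate 3, 3 fell (Ccnd2, Ccne1 and Mcm5), where 4744 of 22373 features fell. Without icKO replicate 3, 2837 of 22642 features rose and 4966 fell. There 4 members fell (Ccnd2, Ccne1, Mcm2 and Mcm5) and 2 were called higher, Cenpa and Bub1b. Bub1b entered that comparison only because the 2 icKO arrays that were left carried the flag, and no control array did, so its call is no support for a rise.

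**Figure D2:**
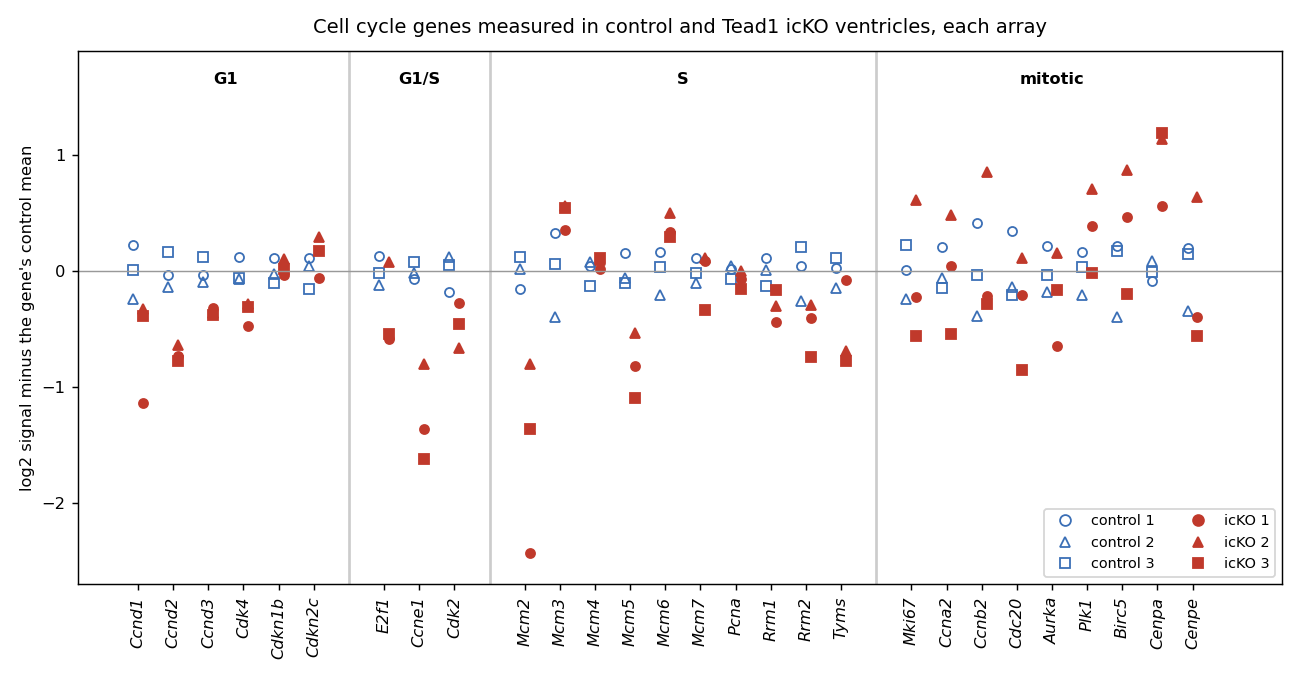
Each measured member on each of the 6 arrays, as log2 signal minus that gene's mean over the 3 control arrays (y axis), with genes on the x axis grouped by phase; open symbols are control mice and filled symbols icKO mice, with 1 symbol shape per replicate number. The icKO symbols lie close together below 0 for Ccnd2, Ccnd3 and Cdk4 (the latter pair are at 0.09 with spike-in scaling), far below 0 and spread out for Ccne1 and Mcm2, and both above and below the controls for Mki67, Ccna2 and Cenpe; the triangle of icKO replicate 2 is the highest of the 3 icKO symbols for 8 of 9 mitotic genes.

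Promoters of the members differ between phases in letters that cell cycle factors are known to read, and they are shown for the genes that the comparisons turn on. RefSeq's table of mouse promoters (GRCm38.p6), which covers 250 bases before to 50 after each gene's start, held 30 of the 36 members, with Ccnd1, Ccnd2, Ccne2, Mcm4, Ccna2 and Aurkb not among them. Motifs were searched on both strands, and none of them contains another. TTTGAA, the core of the element through which MuvB binds promoters of mitotic genes, was found in 10 of 14 mitotic genes (Aurka, Bub1b, Ccnb2, Cdc20, Cdk1, Cenpa, Cenpf, Mki67, Plk1 and Top2a), in 1 of 9 S phase genes (Mcm2) and in 0 of the 7 genes of G1 and of the passage to S, compared with 17.9% of all 32851 promoters. CCAAT, read by NF-Y, was found in 13 of 14 mitotic and 8 of 9 S phase genes, in 3 of 4 G1 genes and in 1 of 3 genes of the passage to S, and in 37.4% of all promoters. TTTCCCGC or TTTGGCGC, forms of the E2F site, was found in Cdk2, Mcm3, Mcm5, Mcm6 and Mcm7 and in 1.56% of all promoters. GGAATG, the core of the site read by TEAD factors, was found in Ccnd3 and Mcm3 and in 14.7% of all promoters. The 150 bases just before the start of 8 genes follow, 5′ to 3′ on the gene's strand, with these motifs in capitals; they show Ccne1 and Mcm2 with the largest falls, the MCM genes Mcm5, which fell, and Mcm6, whose difference was above 0 without a call, Cenpa, the only member that rose, and 3 mitotic genes without a call.
Ccne1 (chr7:38107491-38107640, minus strand): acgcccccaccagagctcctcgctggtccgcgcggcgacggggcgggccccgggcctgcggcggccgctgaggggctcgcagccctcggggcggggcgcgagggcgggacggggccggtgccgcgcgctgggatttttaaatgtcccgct
Mcm2 (chr6:88898781-88898930, minus strand): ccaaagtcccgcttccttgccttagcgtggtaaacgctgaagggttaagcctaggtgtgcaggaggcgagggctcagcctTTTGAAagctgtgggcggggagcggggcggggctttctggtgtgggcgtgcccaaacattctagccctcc
Mcm5 (chr8:75109359-75109508, plus strand): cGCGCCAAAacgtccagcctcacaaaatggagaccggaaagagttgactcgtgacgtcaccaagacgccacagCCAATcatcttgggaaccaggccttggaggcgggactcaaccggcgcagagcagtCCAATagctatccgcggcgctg
Mcm6 (chr1:128359706-128359855, minus strand): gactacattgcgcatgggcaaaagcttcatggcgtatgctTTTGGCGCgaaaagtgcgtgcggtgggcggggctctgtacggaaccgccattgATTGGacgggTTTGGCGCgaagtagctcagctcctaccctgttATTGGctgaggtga
Cenpa (chr5:30666736-30666885, plus strand): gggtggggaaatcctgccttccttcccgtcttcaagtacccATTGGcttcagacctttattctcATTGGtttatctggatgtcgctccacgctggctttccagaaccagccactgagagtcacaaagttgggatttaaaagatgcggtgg
Mki67 (chr7:135716380-135716529, minus strand): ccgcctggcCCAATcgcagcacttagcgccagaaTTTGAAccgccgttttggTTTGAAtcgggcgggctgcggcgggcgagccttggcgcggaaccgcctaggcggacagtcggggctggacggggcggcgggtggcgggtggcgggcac
Cdc20 (chr4:118437344-118437493, minus strand): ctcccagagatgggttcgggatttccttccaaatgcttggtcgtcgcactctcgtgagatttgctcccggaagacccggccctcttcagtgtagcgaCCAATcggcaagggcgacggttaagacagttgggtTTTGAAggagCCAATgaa
Ccnb2 (chr9:70421555-70421704, minus strand): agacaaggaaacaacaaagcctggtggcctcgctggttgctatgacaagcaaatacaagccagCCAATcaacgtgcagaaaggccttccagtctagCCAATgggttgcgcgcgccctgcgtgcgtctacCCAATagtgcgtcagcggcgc
Mcm5 and Mcm6 both hold E2F letters and CCAAT here, 1 E2F match in Mcm5 and 2 in Mcm6. Mcm5 fell, and the difference of Mcm6, above 0, missed the threshold. Further TTTGAA matches of Cenpa, at base 17 after the start, and of Ccnb2, at base 5 after and base 167 before the start, lie outside the stretches shown. A match is a description of these letters and not a site shown to be bound.

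Among the G1 genes, all 6 were measured, and Ccnd2, Ccnd3 and Cdk4 fell, although Ccnd3 and Cdk4 were at 0.09 with spike-in scaling. Ccnd1 and the inhibitors Cdkn1b and Cdkn2c did not pass the threshold. Ccnd2, a D-type cyclin that activates Cdk4, stood at 3.27, 3.18 and 3.47 on control arrays and at 2.57, 2.67 and 2.53 on icKO arrays. All icKO values lay below all control values, by more than the spread within either group. Ccnd2 fell by 0.72 ± 0.11 on the log2 scale (SE, n = 3 and 3; adjusted p = 0.00373), to 0.609 of the control level, and was called lower under 17 of 18 other settings. With spike-in scaling its difference was -0.28 (adjusted p = 0.186).

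Ccnd3, the D-type cyclin best known from blood and muscle cells, stood at 4.51, 4.45 and 4.66 on control arrays and at 4.22, 4.18 and 4.17 on icKO arrays. The groups did not overlap, and the icKO values lay close together. Ccnd3 fell by 0.35 ± 0.10 (adjusted p = 0.0270), and its other probe gave -0.39. Dropping control replicate 1 (-0.37) or 3 (-0.29), or icKO replicate 2 (-0.35) or 3 (-0.34), ended that call. It was also lost with quantile scaling (-0.27), median scaling (-0.20), the authors' value table (-0.26), no filter on dim probes and the slide row as a block (-0.33), and the difference was 0.09 with spike-in scaling. Ccnd1, the cyclin that couples growth factor signals to the cycle, stood at 3.43, 2.97 and 3.22 on control arrays and at 2.07, 2.89 and 2.82 on icKO arrays. Its icKO values lay below its control values, with icKO replicate 1 far below the other two. The difference of -0.62 ± 0.25 missed the threshold (adjusted p = 0.0837), and under none of the 18 other settings was Ccnd1 called. Without icKO replicate 1 the difference was -0.36.

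Cdk4, the kinase partner of the D-type cyclins, stood at 3.62, 3.42 and 3.44 on control arrays and at 3.02, 3.21 and 3.19 on icKO arrays. The groups did not overlap. Cdk4 fell by 0.35 ± 0.11 (adjusted p = 0.0362), and its other probes gave -0.40 and -0.40. That call did not hold when any 1 of the 6 arrays was left out, with differences from -0.39 (without control replicate 2 or icKO replicate 2) to -0.29 (without control replicate 1). The others were -0.38 without control replicate 3, -0.30 without icKO replicate 1 and -0.38 without icKO replicate 3. The call was lost as well with normexp background correction (-0.28), quantile scaling (-0.29), median scaling (-0.20), the authors' value table (-0.29), no filter on dim probes and the slide row as a block (-0.32), and with spike-in scaling the difference was 0.09.

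The inhibitors of G1 kinases gave small differences. Cdkn1b, which binds cyclin E with Cdk2, stood at 2.76, 2.62 and 2.54 on control arrays and at 2.61, 2.74 and 2.66 on icKO arrays, overlapping, with a difference of 0.03 ± 0.10 and a 95% interval from -0.21 to 0.27 (adjusted p = 0.833). That sign turned without control replicate 3 (-0.02) or icKO replicate 2 (-0.01). Cdkn2c, which binds Cdk4, stood at -0.19, -0.26 and -0.45 and at -0.36, -0.01 and -0.13, also overlapping, with a difference of 0.14 ± 0.13 and a 95% interval from -0.18 to 0.45 (adjusted p = 0.429). Both were called higher only with spike-in scaling among the 18 settings, Cdkn1b by 0.47 (adjusted p = 0.0376) and Cdkn2c by 0.58 (adjusted p = 0.0296).

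Of the 4 genes of the passage from G1 to S, 3 were measured, and all 3 differences were below 0. Ccne1, cyclin E1, which with Cdk2 starts S phase, stood at -1.09, -1.04 and -0.94 on control arrays and at -2.39, -1.83 and -2.64 on icKO arrays. The control mice lay close together, and every icKO mouse lay well below them, icKO replicate 2 the least. Ccne1 fell by 1.26 ± 0.21 (adjusted p = 0.00476), which is 2.39-fold, and was called lower under all 18 other settings, with differences from -1.49 to -0.82. Ccne2, the other cyclin E gene, gave no signal well above background on any of the 6 arrays.

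Cdk2, the kinase partner of cyclin E, stood at -2.02, -1.72 and -1.79 on control arrays and at -2.12, -2.51 and -2.30 on icKO arrays. The groups did not overlap, although the highest icKO mouse lay just below the lowest control. Cdk2 fell by 0.47 ± 0.14 (adjusted p = 0.0361). Dropping control replicate 2 (-0.40) or 3 (-0.44), or icKO replicate 2 (-0.37) or 3 (-0.47), ended that call. It was also lost with median scaling (-0.31), no filter on dim probes, trended robust eBayes (adjusted p = 0.0697) and spike-in scaling (-0.03). E2f1, the factor that switches on replication genes, stood at -1.81, -2.07 and -1.96 on control arrays and at -2.53, -1.87 and -2.49 on icKO arrays. The icKO replicate 2 mouse lay among the controls and the other two icKO mice lay below them. The E2f1 difference was -0.35 ± 0.20 (adjusted p = 0.191), and E2f1 was called lower without icKO replicate 2 (-0.57, adjusted p = 0.0217) and with normexp background correction (-0.40, adjusted p = 0.0146).

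All 10 S phase genes were measured, and the 6 subunits of the MCM helicase, which form 1 ring that opens DNA at replication forks, did not all differ in the same direction. Mcm2 stood at -1.17, -1.001 and -0.90 on control arrays and at -3.46, -1.83 and -2.39 on icKO arrays. All icKO mice lay below all controls and differed widely from each other, replicate 1 being the lowest. Mcm2 fell by 1.53 ± 0.39 (adjusted p = 0.0210), or 2.89-fold. Its difference stayed between -1.90 and -0.91 under the 18 other settings. Any 1 control that was dropped ended the call, replicate 1 with -1.61 (adjusted p = 0.0523), replicate 2 with -1.52 (adjusted p = 0.0578) and replicate 3 with -1.47 (adjusted p = 0.0625), and without icKO replicate 1 the difference was -1.08 (adjusted p = 0.0122).

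Mcm5 stood at -0.74, -0.96 and -1.0 on control arrays and at -1.72, -1.43 and -2.00 on icKO arrays. Again the groups did not overlap, and icKO replicate 2 was the least low. Mcm5 fell by 0.82 ± 0.17 (adjusted p = 0.00952), or 1.76-fold, and only spike-in scaling among the 18 settings ended the call (-0.38, adjusted p = 0.129).

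The subunits Mcm3 and Mcm6 lay on the other side of the controls. Mcm6 stood at 2.28, 1.91 and 2.15 on control arrays and at 2.45, 2.61 and 2.41 on icKO arrays, with no overlap. Its difference of 0.38 ± 0.13 missed the threshold (adjusted p = 0.0521), but it was called higher under 9 of 18 other settings, among them median scaling (0.54) and leaving out control replicate 1 (0.46). Mcm3 stood at 0.38, -0.35 and 0.11 on control arrays and at 0.40, 0.61 and 0.60 on icKO arrays, with the lowest icKO value just above the highest control. The Mcm3 difference was 0.49 ± 0.19 (adjusted p = 0.0826), and calls came with control replicate 1 dropped (0.65, adjusted p = 0.0394), with the slide row as a block (0.61) and with spike-in scaling (0.93).

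For the subunits Mcm4 and Mcm7 the groups overlapped. Mcm4 stood at 1.29, 1.32 and 1.11 on control arrays and at 1.26, 1.34 and 1.36 on icKO arrays, a difference of 0.08 with a 95% interval from -0.16 to 0.32. Mcm7 stood at 1.52, 1.30 and 1.39 and at 1.496, 1.52 and 1.07, with icKO replicate 3 the lowest of all 6 arrays. The Mcm7 difference was -0.04, with a 95% interval from -0.41 to 0.32. Its sign turned with median (0.11) and spike-in scaling (0.40), without control replicate 1 (0.02) and without icKO replicate 3 (0.10). The MCM subunits are needed in equal numbers in the ring, and the 6 fitted differences ran from -1.53 (Mcm2) to 0.49 (Mcm3).

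Pcna, the sliding clamp of DNA polymerases, gave almost the same value on every array, 2.66, 2.69 and 2.58 in controls and 2.58, 2.65 and 2.49 in icKO. The groups overlapped, and the difference of -0.07 (95% interval from -0.30 to 0.15) became 0.08 with median and 0.37 with spike-in scaling. The genes that supply deoxynucleotides had differences below 0 in 3 of 3 cases, none past the threshold. With normexp background correction Rrm2 (-0.36, adjusted p = 0.0349) and Tyms (-0.44, adjusted p = 0.00950) were called lower. Rrm1, the large subunit of ribonucleotide reductase, gave -0.30 ± 0.12 (adjusted p = 0.0803), or 0.14 with spike-in scaling. Rrm2, the small subunit that limits the enzyme outside S phase, stood at -0.26, -0.56 and -0.10 and at -0.72, -0.60 and -1.05. No icKO value of Rrm2 reached the controls, although icKO replicate 2 lay just below control replicate 2. The Rrm2 difference was -0.48 ± 0.17 (adjusted p = 0.0623), and -0.61 without control replicate 2 (adjusted p = 0.0437). Tyms, which makes thymidylate, stood at -2.94, -3.11 and -2.86 and at -3.05, -3.66 and -3.74. Its icKO replicate 1 lay among the controls, and the probe was well above background on 2 of 3 icKO arrays. The Tyms difference was -0.52 ± 0.20 (adjusted p = 0.0788), and -0.73 without icKO replicate 1 (adjusted p = 0.00850).

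Mitotic genes varied widely between the icKO mice. Of 16 mitotic genes, 9 were measured, and for 8 of these 9 the groups overlapped. The SD between icKO mice was above that between control mice in 9 of 9 genes, with medians of 0.52 and 0.24, where over all features the medians were 0.16 and 0.15 and the icKO SD was the larger in 54.8%. Within icKO, replicate 2 was the highest for 8 of 9 mitotic genes and replicate 3 the lowest for 7 of 9, compared with 32.6% and 30.0% of all features. Replicate 2 was also the highest icKO array for 5 of 6 G1 genes, 2 of 3 genes of the passage to S and 7 of 10 S phase genes. Replicate 3 was the lowest for 2 of 6, 1 of 3 and 6 of 10 of these, so this order was not particular to mitotic genes. Within the controls, replicate 1 was the highest for 7 of 9 and replicate 2 the lowest for 6 of 9, compared with 42.3% and 43.7% of all features.

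Mki67, the proliferation marker that coats mitotic chromosomes, stood at -0.36, -0.61 and -0.14 on control arrays and at -0.60, 0.24 and -0.93 on icKO arrays. Its icKO replicate 2 lay above every control and its icKO replicate 3 below every control. The difference of -0.06 ± 0.31 (adjusted p = 0.892) turned to 0.10 with median scaling, 0.38 with spike-in scaling and 0.19 without icKO replicate 3, and the other Mki67 probe gave -0.11. Ccnb2, a B-type cyclin that drives entry into mitosis, stood at -0.94, -1.74 and -1.38 and at -1.57, -0.50 and -1.64, with icKO replicate 2 again the highest of all 6 arrays. The Ccnb2 difference was 0.12 ± 0.36 (adjusted p = 0.805), and -0.25 without icKO replicate 2. Cenpe, a kinesin of the kinetochore, stood at -1.88, -2.42 and -1.94 and at -2.48, -1.44 and -2.64, so that icKO replicate 2 lay above and the other two icKO mice below all controls. The Cenpe difference was -0.10 ± 0.34 (adjusted p = 0.823), and 0.12 without icKO replicate 3.

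Ccna2, the cyclin of S phase and early mitosis, stood at -2.05, -2.32 and -2.40 and at -2.21, -1.77 and -2.80, a difference of -0.00 with a 95% interval from -0.64 to 0.63. Its icKO mice lay above, among and below the controls. Cdc20, an activator of the anaphase-promoting complex, stood at -0.22, -0.70 and -0.77 and at -0.77, -0.45 and -1.42, a difference of -0.32 ± 0.28 (adjusted p = 0.384), or 0.13 with spike-in scaling. Aurka, a kinase of the spindle poles, gave -0.22 (95% interval from -0.75 to 0.32), or 0.22 with spike-in scaling, and overlapped too. Plk1, a kinase of mitotic entry, stood at -1.81, -2.18 and -1.93 and at -1.58, -1.26 and -1.99. In Plk1, icKO replicates 1 and 2 lay above all controls and replicate 3 among them, a difference of 0.36 ± 0.20 (adjusted p = 0.189). Birc5, survivin, a subunit of the chromosomal passenger complex, showed the same order at -0.18, -0.79 and -0.22 and at 0.07, 0.47 and -0.60, a difference of 0.38 ± 0.30 (adjusted p = 0.342), and 0.14 without icKO replicate 2. With spike-in scaling Plk1 (0.81) and Birc5 (0.82) were called higher. The 2 further probes of Birc5 were well above background on 1 and 0 arrays.

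Cenpa, the histone H3 variant that marks centromeres, was the exception among mitotic genes. It stood at 2.03, 2.20 and 2.11 on control arrays and at 2.68, 3.25 and 3.31 on icKO arrays. Here all icKO mice lay above all controls, and icKO replicate 3, the lowest for 7 of 9 mitotic genes, was the highest. Cenpa rose by 0.96 ± 0.18 (adjusted p = 0.00737), or 1.95-fold, and was called higher under all 18 other settings, with differences from 0.85 to 1.41.

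The 7 mitotic genes that were not measured lay at the edge of detection. For Ccnb1, partner of Cdk1, the brightest probe stood at -2.76, -2.98 and -3.38 on control arrays and at -3.21, -2.02 and -3.68 on icKO arrays, well above background on 2 of 3 arrays in each group. As in the measured genes, icKO replicate 2 was the highest and icKO replicate 3 the lowest. Bub1b, a checkpoint protein of the kinetochore, was well above background on 0 control and 2 icKO arrays, Top2a, which untangles DNA, on 1 icKO array and Cenpf, a kinetochore protein, on 1 control array. Cdk1, the mitotic kinase, with 3 probes, and Bub1 and Aurkb, kinases of the checkpoint and the passenger complex, gave no signal well above background on any of the 6 arrays. Member genes well above background numbered 30, 28 and 29 on control arrays and 30, 31 and 27 on icKO arrays, so that the number detected did not separate the groups.

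**Figure D3:**
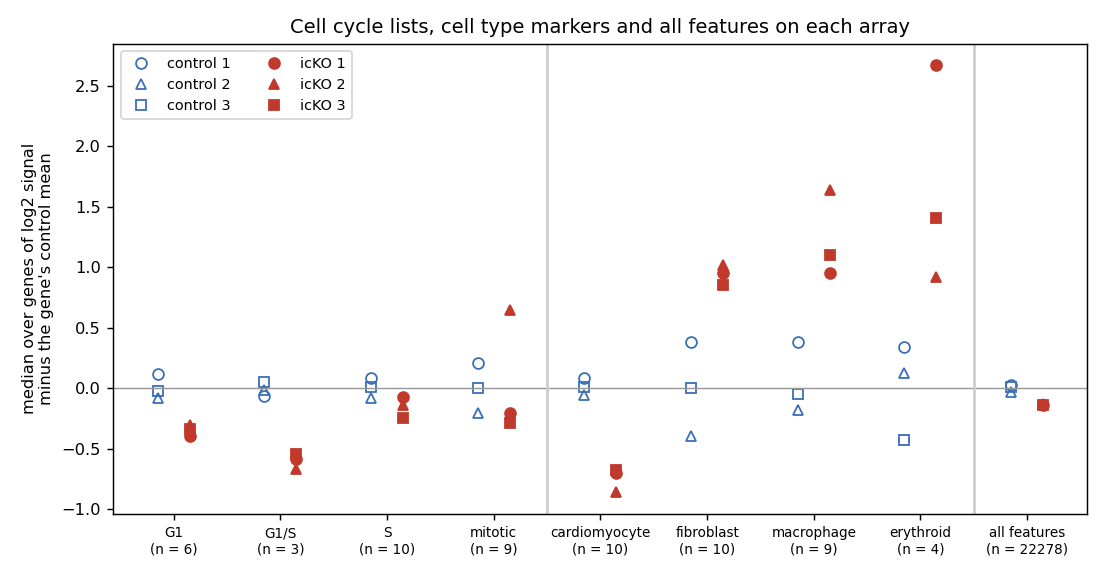
For each array, the median over the measured genes of a list of log2 signal minus the gene's control mean (y axis), for the 4 lists of cell cycle genes, for markers of 4 cell types and for all features (x axis, with the number of genes); open symbols are control mice and filled symbols icKO mice, 1 shape per replicate number. The icKO symbols of the G1 list lie between -0.40 and -0.30, while those of the mitotic list lie at -0.21, 0.64 and -0.29.

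The medians per array show how far the list medians agreed among the mice of a group. The G1 median, relative to the control mean of each gene, was 0.11, -0.08 and -0.02 on control arrays and -0.40, -0.30 and -0.34 on icKO arrays, and the median for the passage to S was -0.07, -0.02 and 0.05 and then -0.59, -0.67 and -0.55. In both lists the medians of the 3 icKO mice lay close together and apart from the controls. The single genes of the passage to S agreed less. Their SD between icKO mice was above that between controls in 3 of 3 genes, with medians of 0.37 and 0.13, and E2f1 overlapped the controls. The S phase median was 0.08, -0.08 and 0.01 for the control mice and -0.07, -0.14 and -0.25 for the icKO mice, with icKO replicate 1 just above control replicate 2. The mitotic median was 0.21, -0.20 and -0.00 for the control mice and -0.21, 0.64 and -0.29 for the icKO mice, with icKO replicate 2 above and the other two below all controls. On icKO replicates 1 and 3 the mitotic median lay below that of all features, which was -0.14 on each of these arrays, as the G1 median did. Over the 9 mitotic genes the median difference was -0.25 without icKO replicate 2 and 0.32 without icKO replicate 3.

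Marker lists of cell types did not all take the same order among the icKO mice. The macrophage marker median was 0.96, 1.64 and 1.104 on the icKO arrays, again highest for replicate 2, and the fibroblast marker median was 0.95, 1.02 and 0.86. Erythroid markers took another order, 2.67, 0.92 and 1.41, with replicate 2 the lowest. Replicate 2 was also the lowest for cardiomyocyte (-0.705, -0.863 and -0.68), endothelial (-0.125, -0.502 and -0.183) and lymphocyte markers (-0.179, -0.396 and -0.245). Smooth muscle and pericyte markers gave 0.136, 0.007 and -0.18. All arrays lay on 1 slide by their headers, and row and column on it were read from the ending of the array's identifier there, which the headers do not spell out. The mitotic median also differed with that row: the arrays in slide row 1 gave 0.21 (control replicate 1), -0.00 (control replicate 3) and 0.64 (icKO replicate 2), and those in row 2 gave -0.20 (control replicate 2), -0.21 (icKO replicate 1) and -0.29 (icKO replicate 3). With the slide row as a block the mitotic median difference was 0.17, and Mcm3, Mcm6, Plk1 and Cenpa were called higher. The controls lay in slide columns 1, 1 and 2 and the icKO arrays in columns 2, 3 and 3, so that column and group can hardly be told apart. The part of macrophage content or slide position in the mitotic values was not tested.

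A wider list of 131 cell cycle genes outside the 36 members, of which 98 were measured, gave 13 higher and 28 lower genes, or 41.8% called, near the 44.8% of all features. Their median difference was -0.20. Without control replicate 3 or icKO replicate 3 the lower genes numbered 18, and with spike-in scaling 35 were higher and 5 lower. By sublist, mitotic spindle, kinetochore and cytokinesis genes gave 1 higher and 1 lower of 14, with a median of -0.03, and genes of origin licensing and the replication fork gave 3 higher and 9 lower of 30, with a median of -0.23. As among the members, icKO replicate 2 was the highest of the icKO arrays for 10 of 14 spindle genes and for 8 of 13 genes of anaphase, cohesin and condensin, which gave 1 higher and 4 lower and a median of -0.10.

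**Figure D4:**
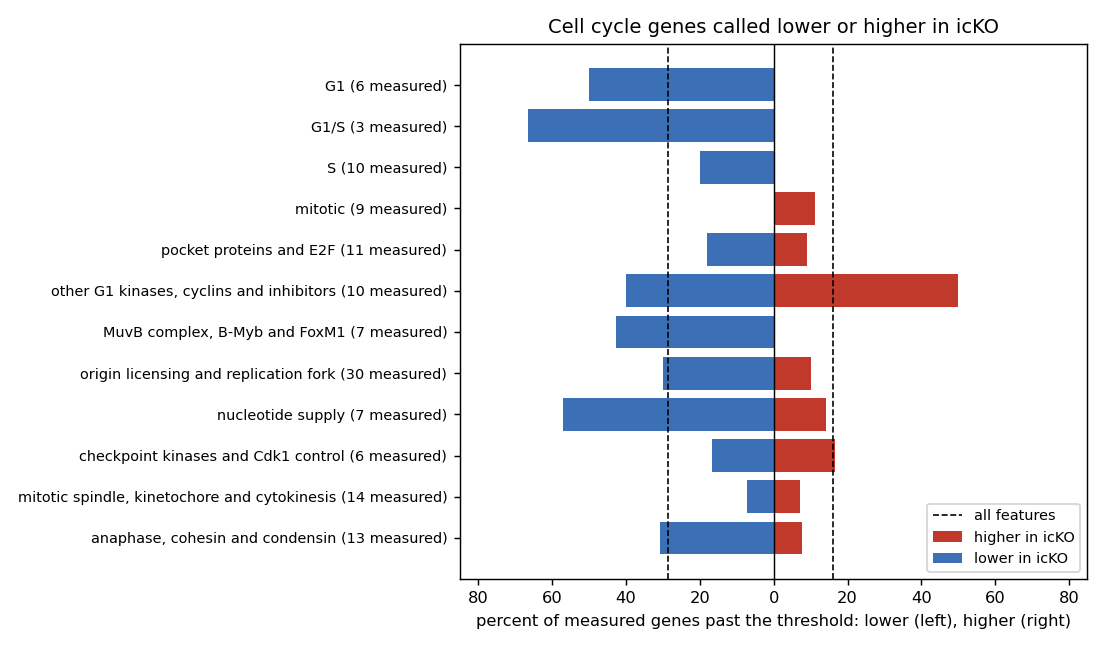
Share of the measured genes of each list that passed the threshold, in percent, with genes lower in icKO drawn to the left and genes higher to the right of 0; dashed lines give the shares of all features, 28.7% lower and 16% higher. The 4 lists of members are at the top, and G1 kinases, cyclins and inhibitors outside the members had calls on both sides, 5 higher and 4 lower of 10; the split moves toward higher genes with spike-in scaling.

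Inhibitors of cyclin-dependent kinases outside the members moved in both directions. Cdkn1a, an inhibitor induced by p53 that halts the cycle in G1, stood at 1.71, 1.95 and 2.10 on control arrays and at 4.87, 4.21 and 4.08 on icKO arrays. Every icKO mouse lay far above every control. Cdkn1a rose by 2.46 ± 0.23 (adjusted p = 0.000662), or 5.52-fold, while its other probe, for another transcript, gave -0.17. Cdkn2b, an inhibitor of Cdk4, rose by 1.60 ± 0.18 (adjusted p = 0.00120), its probe well above background on 2 of 3 control arrays. That probe entered the comparison through the icKO arrays alone, and with normexp background correction the difference of Cdkn2b was 0.46. Cdkn1c, an inhibitor that keeps cells out of the cycle during development, fell by 0.87 ± 0.09 (adjusted p = 0.000983). Ccng1, a cyclin induced by p53, fell by 0.72 ± 0.10 (adjusted p = 0.00287).

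Among pocket proteins and E2F factors 1 rose and 2 fell of 11, or 27.3% called, below the 44.8% of all features. E2f2, an activating E2F factor, stood at -1.63, -1.19 and -1.46 on control arrays and at 1.99, -0.08 and 0.37 on icKO arrays. Its order among icKO mice, replicate 1 highest and replicate 2 lowest, was that of the erythroid markers, and the part of erythroid RNA in it was not tested. E2f2 rose by 2.19 ± 0.51 (adjusted p = 0.0157), a call lost without control replicate 1 (2.09, adjusted p = 0.0537). E2f8, an E2F factor that represses, fell by 1.34 ± 0.31 (adjusted p = 0.0154), with the probe well above background on 1 of 3 icKO arrays, so that the fitted size rests mostly on signals near background. Dropping control replicate 3 (-1.21) or the filter on dim probes (adjusted p = 0.0568) ended the call. For E2f7, a repressor of the same kind, the brighter probe gave -0.71 and the other 0.39, and the call was lost with the mean of both (-0.16). Of 7 genes of MuvB with B-Myb and FoxM1, 3 fell, where 28.7% of all features did, among them the MuvB subunits Lin52 (-0.54) and Lin9 (-0.67). The other Lin52 probes gave -0.17 and, well above background on 1 of 3 icKO arrays, -0.79. With median scaling (-0.39 and -0.51) or no filter on dim probes, Lin52 and Lin9 were not called. The Lin52 call was lost without icKO replicate 3 (-0.50), and that of Lin9 without control replicate 2 (-0.66), icKO replicate 1 (-0.64) or icKO replicate 3 (-0.66).

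In replication, Gmnn, geminin, which blocks renewed licensing of origins, stood at 1.34, 1.44 and 1.38 on control arrays and at -0.25, 0.00 and -0.15 on icKO arrays. The spread within each group was small against the gap. Gmnn fell by 1.52 ± 0.10 (adjusted p = 0.000278), or 2.87-fold. Rpa3, a subunit of the protein that coats single-stranded DNA, fell by 0.84 ± 0.18, while Orc2, a subunit of the origin recognition complex, rose by 0.72 ± 0.15 and Prim2, a primase subunit, by 0.67 ± 0.15. Of 7 genes of nucleotide supply, 4 fell and 1 rose, where 28.7% of all features fell and 16% rose. Dut, which removes dUTP, stood at 0.62, 0.54 and 0.35 and at -1.13, -0.79 and -1.15, and fell by 1.53 ± 0.14 (adjusted p = 0.000644). Ctps, which makes CTP, stood at 3.998, 3.73 and 3.98 and at 2.44, 2.36 and 2.43, and fell by 1.49 ± 0.11 (adjusted p = 0.000329). Both genes lay lower in every icKO mouse than in any control. Nme1, a nucleoside diphosphate kinase, gave 0.34 with the brighter and -0.20 with the other probe, and its call was lost without any control replicate (0.31 to 0.38) and without icKO replicate 2 (0.33) or icKO replicate 3 (0.31).

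Among checkpoint genes, Wee1, the kinase that holds Cdk1 inactive, stood at -0.78, -0.94 and -0.92 on control arrays and at 0.96, 0.58 and 0.64 on icKO arrays, and rose by 1.61 ± 0.13 (adjusted p = 0.000441). Chek2, a kinase of the DNA damage response, was not well above background on any icKO array and was at least 2.54-fold dimmer there than in controls. Its dim side was taken per array as the higher of the probe's own signal and the lowest signal well above background. The Chek2 probe entered the comparison through the controls alone. Its limma fit (adjusted p = 0.00401) used the probe's own icKO signals, so that value does not belong to the bound. In mitosis, Spc24, a subunit of the Ndc80 complex at kinetochores, stood at -1.04, -1.07 and -1.14 and at -3.15, -3.00 and -3.58. That probe was well above background on 2 of 3 icKO arrays and entered the comparison through the controls alone. Spc24 fell by 2.16 ± 0.16 (adjusted p = 0.000358), and its difference was -1.19 with normexp background correction. Anln, anillin, which works at the cleavage furrow, rose by 1.16 ± 0.22 (adjusted p = 0.00693). Pttg1, securin, fell by 0.69 ± 0.09, and of the condensin subunits Ncapd2 fell by 0.78 ± 0.15 and Smc4 rose by 0.54 ± 0.10. With spike-in scaling the calls of Cdkn1c (-0.43), Ccng1 (-0.28), E2f7 (-0.27), E2f8 (-0.90), Lin52 (-0.10), Lin9 (-0.23), Rpa3 (-0.40), Pttg1 (-0.25) and Ncapd2 (-0.34) were lost, and with normexp background correction that of Prim2 (0.26).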

How the data were processed

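The deposited scanner files hold spot intensity on a linear scale made by Feature Extraction 11.0.1.1 (Agilent) for array design 028005, drawn on genome build mm9, per the file headers, background-subtracted within each array and not scaled between arrays. The submitters' processing notes name Feature Extraction 9.1. The authors' deposited value table also holds intensity, with column medians from 18.37 to 18.47; the sources used here do not give its normalization, and it served as an alternative.

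The log2 of the processed signal was set against each array's own 75th percentile (control spots left out). Outlier spots were dropped and spots of a probe averaged. Kept probes numbered 26152. Probes were named through RefSeq accessions without versions (26582 of 55681 named, GRCm38.p6 table, used for names only). The brightest kept probe was used for a gene, and unnamed probes were tested singly. Groups were compared with limma 3.58.1 in R 4.3.3 (lmFit, eBayes, group as the only term), Benjamini-Hochberg adjusted over 22278 features; every adjusted p comes from such a fit. The steps were tested on simulated data. All 36 members are named, and from each wider sublist up to 2 higher and 2 lower genes, those of smallest p among the calls. Members and lists were chosen with earlier results of these data known. The normexp alternative (offset 50) used the median foreground, since the files give no mean signal. Other alternatives were other scalings, filters, probe rules, eBayes options, blocks and leaving out each array.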

Additional observations from a re-analysis of the deposited data

How the results depend on the processing

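Each result was recomputed under 18 other settings, except that Tyms, Spc24, Cdkn2b, Chek2 and E2f8 have no value with probes above background on all 6 arrays, which removes them. Of the values for named genes, 789 kept direction and side of the threshold, 79 lost a call, 24 gained one and 39 changed sign; of the counts and list medians, 104 stayed close and 40 moved. Members called higher, 1 in the main comparison, numbered 2 with normexp, quantile or median scaling, the authors' value table, probes above background on all 6 arrays or trended robust eBayes, 8 with spike-in scaling, 4 with the slide row as a block and 1 to 3 with an array left out. Members called lower, 7 in the main comparison, numbered 9 with normexp, where E2f1, Rrm2 and Tyms joined and Cdk4 was lost, 4 with median scaling, 2 with spike-in scaling, 3 with no filter on dim probes and 3 to 7 with an array left out. Over all features, 3573 were higher and 6401 lower in the main comparison. With an array left out, 2730 to 3236 were higher and 4744 to 5797 lower. In the wider list, higher genes numbered 35 with spike-in scaling and 7 with no filter, and lower genes 12 with median scaling, 5 with spike-in scaling, 11 with no filter and 18 to 22 with an array left out. The G1 median was -0.20 with median scaling, 0.088 with spike-in scaling and -0.27 in the authors' table. The median for the passage to S was -0.40 with normexp, -0.37 with quantile scaling and in the authors' table, -0.31 with median scaling, -0.025 with spike-in scaling, -0.55 with the slide row as a block and -0.57 to -0.41 with an array left out. The S phase median was -0.028 with median scaling, 0.26 with spike-in scaling and -0.072 with probes above background on all 6 arrays, and the mitotic median 0.44 with spike-in scaling. Signs turned as follows. With spike-in scaling: Tead1 0.043, Ccnd3 0.089, Cdk4 0.087, E2f1 0.091, Mcm7 0.40, Pcna 0.37, Rrm1 0.14, Mki67 0.38, Ccna2 0.44, Cdc20 0.13, Aurka 0.22 and Cenpe 0.34. With median scaling: Mcm7 0.11, Pcna 0.084, Mki67 0.10, Ccna2 0.15 and Cenpe 0.053. With normexp: Mcm7 0.033, Pcna 0.045 and Ccnb2 0.00. With quantile scaling or the authors' table Ccna2 gave 0.10. With the slide row as a block: Mcm7 0.022, Mki67 0.17, Ccna2 0.14 and Cenpe 0.17. With an array left out, the lowest and highest differences were -0.02 and 0.088 for Cdkn1b, -0.122 and 0.103 for Mcm7, -0.393 and 0.194 for Mki67, -0.248 and 0.266 for Ccna2, -0.251 and 0.328 for Ccnb2, and -0.477 and 0.124 for Cenpe, where the lowest came without icKO replicate 2 in each case but Cdkn1b. Apart from the constant shifts that median and spike-in scaling apply by construction, and the fewer arrays or more features where those were the change, the cause was not tested.

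Replicate numbers do not pair the mice: deviations of same-numbered arrays from their group means correlated at -0.05, -0.13 and 0.00. With the replicate block, 7881 features were called in place of 9974, and 1 member was higher and 4 lower, without Ccnd3 (adjusted p = 0.0753), Cdk4 (adjusted p = 0.102) and Cdk2 (adjusted p = 0.0980).

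Genes near background, such as the 8 members not measured, Tyms and E2f8, have little room to show a lower level, and with 3 arrays a group the 95% intervals of the mitotic genes are wide.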
